A study of Mus musculus with 13 samples.

Results

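The cholinergic genes described here are 10 genes of acetylcholine synthesis, storage, breakdown and reception, taken by symbol from a table of 37636 mouse gene IDs. Each symbol had a single row. They are Chat, Slc18a3 and Slc5a7, which make and load the transmitter, the esterases Ache and Bche, the muscarinic receptors Chrm1, Chrm2, Chrm3 and Chrm4, and the nicotinic receptor subunit Chrna4. Their RNA was measured by sequencing in the brain of male Balb/c mice, an inbred strain, 6 to 8 weeks old. The 6-OHG group (4 libraries) was held at 8000 m for 24 h and received 6-OHG, an agent named only by that code and without a dose. The Mod group (5 libraries) had the same exposure and no 6-OHG, and the Con group (4 libraries) had the normal condition and no 6-OHG. No group had 6-OHG without the exposure. Which region of the brain was taken is not stated, nor is it stated whether each library came from its own animal, so p-values may measure a spread that is only technical.

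Acetylcholine is made from choline and acetyl-CoA by choline acetyltransferase (Chat), packed into vesicles by the vesicular transporter Slc18a3, and renewed by Slc5a7, the high-affinity choline transporter of the terminal. Acetylcholinesterase (Ache) ends the signal in the synapse, and butyrylcholinesterase (Bche), found in glia and in blood serum, can also cleave acetylcholine. Cell bodies that make the transmitter lie in the basal forebrain, among the interneurons of the striatum and in the brainstem and its motor nuclei, whereas the receptors are spread over many neurons.

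Values are FPKM as the authors deposited them, that is, fragments divided by the length of the gene and by the mapped total, so levels of different genes can be set beside each other per length. Read totals, and with them counting errors, are not known. The values of a library added up to 268208 to 312908, of which mitochondrially encoded genes made up 20.6% to 28.7%. Markers of neurons in general were present in every library, with summed levels of 898.1 to 1027 FPKM in 6-OHG, 921.5 to 973.8 FPKM in Mod and 1040 to 1070 FPKM in Con. Of 11 genes that mark cholinergic neurons apart from the 10 described, 3 reached a mean of 1 FPKM, and Lhx8 and Gbx1 were listed at 0 in some libraries. Across genes, 6-OHG replicate 2 and Con replicate 4 were least like their own groups (mean r of 0.963 and 0.969, against 0.974 to 0.983 for the others), and calls that change without them are given both ways. Markers of motor neurons and brainstem summed to 26.0 FPKM in 6-OHG replicate 2 and 24.7 FPKM in Con replicate 4, and to between 0.768 and 8.3 FPKM in the other 11 libraries, while Mnx1 of that list was not analysed here.

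Chat and Slc18a3 share a locus on chromosome 14 (GRCm38). Slc18a3, a gene of a single exon at 32462438 to 32464850 on the minus strand, lies inside an intron of Chat, which spans 32408203 to 32465989 on the same strand. It overlaps 0 annotated Chat exons, the nearest ending 395 bases below it and starting 956 bases above it, so reads of spliced messages are separable but unspliced Chat RNA would also cover Slc18a3. The stretches before the RefSeq starts (GRCm38.p6) of the 3 genes whose levels moved together across libraries, and of Bche, the member whose libraries in both exposed groups all lay below those of Con, read as follows, 5′ to 3′ on the strand of the gene, with the hypoxia-inducible factor core ACGTG or GCGTG, on either strand, in capitals. The Chat stretch (chr14:32465990-32466159, minus strand) stops 81 bases before the start, where an annotated Chat exon begins. The others end at base -1, at chr14:32464851-32465100 for Slc18a3, chr17:54299035-54299284 for Slc5a7 and chr3:73708416-73708665 for Bche, all on the minus strand.
Chat: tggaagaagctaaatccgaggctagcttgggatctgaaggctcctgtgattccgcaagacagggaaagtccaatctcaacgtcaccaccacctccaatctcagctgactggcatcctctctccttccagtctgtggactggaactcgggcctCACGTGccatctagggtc
Slc18a3: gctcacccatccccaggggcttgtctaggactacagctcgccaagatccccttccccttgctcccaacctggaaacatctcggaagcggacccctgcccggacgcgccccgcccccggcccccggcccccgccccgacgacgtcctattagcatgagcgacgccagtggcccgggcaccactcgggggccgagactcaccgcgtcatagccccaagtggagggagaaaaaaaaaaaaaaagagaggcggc
Slc5a7: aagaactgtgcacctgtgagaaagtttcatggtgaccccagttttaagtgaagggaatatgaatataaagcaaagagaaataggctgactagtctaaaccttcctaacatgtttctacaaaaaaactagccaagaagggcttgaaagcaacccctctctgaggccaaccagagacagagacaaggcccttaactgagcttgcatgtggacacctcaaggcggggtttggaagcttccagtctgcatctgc
Bche: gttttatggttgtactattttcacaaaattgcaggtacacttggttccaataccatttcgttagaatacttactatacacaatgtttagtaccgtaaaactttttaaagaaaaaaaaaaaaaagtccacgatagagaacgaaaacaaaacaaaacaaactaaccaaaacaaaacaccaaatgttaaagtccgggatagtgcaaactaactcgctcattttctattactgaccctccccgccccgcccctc
Of the 4 stretches shown, that of Chat holds the core, as the palindrome CACGTG with matches on both strands. Over the 250 bases before the start, 4 of the 9 members with a RefSeq promoter (all but Chrm1) held a core, namely Chat, Ache, Chrm3 and Chrm4, against 38.6% of 32851 mouse promoters of that length. CACGTG, which contains the core, stood in 2 of the 9, Chat and Ache, against 6.02% of promoters, and the GC box GGGCGG in 6 of 9, against 32.7%. A match is a string of letters and does not show that a factor binds there.

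Averaged over the 13 libraries, Chrm1 (17.6 FPKM) and Ache (17.2 FPKM) had the highest levels, followed by Chrm4 at 10.8, Chrna4 at 7.7, Chrm3 at 6.81 and Chrm2 at 4.11 FPKM. Slc5a7 averaged 1.76, Slc18a3 0.889, Chat 0.762 and Bche 0.652 FPKM. Neighbours in this order were often not separable, since Chrm1 exceeded Ache in 8 of 13 libraries, Chrna4 exceeded Chrm3 in 6, Slc18a3 exceeded Chat in 7 and Chat exceeded Bche in 7. Chrm2 lay above Slc5a7, and Slc5a7 above Slc18a3, in all 13.

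Of the 10 genes, 7 reached the mean of 1 FPKM needed for the fit across all 13905 genes, and 0 of these 7 passed an adjusted p of 0.05 in any of the 3 comparisons (limma on log2(FPKM + 1), Benjamini-Hochberg over all genes tested). At an unadjusted p under 0.05 the count was also 0 of 7 in each comparison. Of all genes tested, 15.3% passed between 6-OHG and Mod, 30.7% between 6-OHG and Con and 23.8% between Mod and Con. The 3 comparisons share libraries and are not independent of each other. Of the genes called, the share that was higher was 45.5%, 53.2% and 58.7% in these comparisons, and 77.7%, 58.7% and 40.5% after rescaling the columns to equal sums. Differences below are of mean log2(FPKM + 1), which understates changes of low genes, with standard errors and 95% intervals from the fit. In whole tissue, fewer cells of a type and less RNA per cell cannot be told apart.

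**Figure D1:**
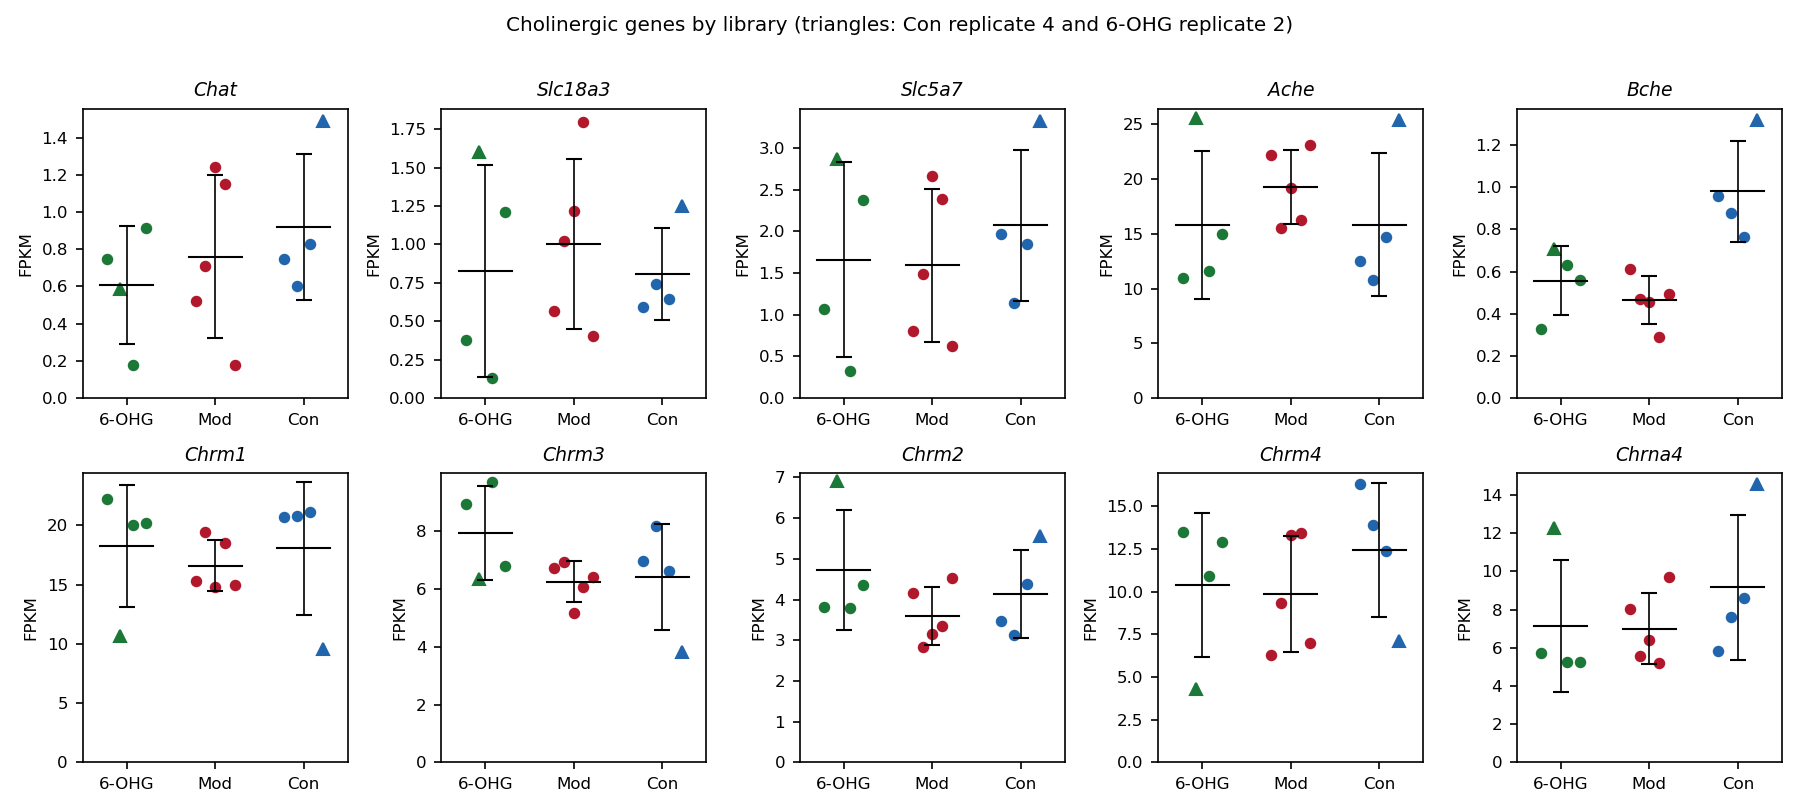
Level of each of the 10 cholinergic genes (FPKM, vertical axis from 0) in every library of the 6-OHG (n = 4), Mod (n = 5) and Con (n = 4) groups. Points are libraries, triangles are 6-OHG replicate 2 and Con replicate 4, horizontal lines are means and bars are 1 SD. Bche is the gene whose Con libraries (0.766 to 1.32 FPKM) all lie above the libraries of both other groups.

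Bche was the member whose exposed and normal libraries did not overlap, at low levels. It had 0.329, 0.709, 0.629 and 0.56 FPKM in the 6-OHG libraries, 0.613, 0.472, 0.457, 0.29 and 0.494 FPKM in Mod, and 0.957, 0.876, 0.766 and 1.32 FPKM in Con. Every Con library lay above every library of the other 2 groups, while 6-OHG and Mod overlapped. The means were 0.557 ± 0.164 FPKM in 6-OHG (SD, n = 4), 0.465 ± 0.116 FPKM in Mod (SD, n = 5) and 0.979 ± 0.239 FPKM in Con (SD, n = 4). Among all 37636 genes in the table, with those under 1 FPKM included, 6.15% were lower without overlap in 6-OHG than in Con and 4.19% in Mod than in Con. Among genes averaging at least 1 FPKM, without 6-OHG replicate 2 and Con replicate 4, these shares were 22.3% and 14.9%. Bche lies under the 1 FPKM filter, so an exact two-sided permutation test was used. That exact test gave p = 0.0286 for 6-OHG against Con and p = 0.0159 for Mod against Con, each the smallest p that these group sizes allow. Between 6-OHG and Mod the exact p was 0.397. Over the 9 exact permutation tests of the 3 genes under the filter, the lowest adjusted p was 0.129. With group sizes setting the smallest exact p, Bche alone could not have brought this adjusted value under 0.05. In a fit of all 37636 genes without the filter, where 3.96% of genes were called between 6-OHG and Mod, 11.4% between 6-OHG and Con and 8.08% between Mod and Con, Bche differed by -0.35 ± 0.10 (SE, adjusted p = 0.0567, limma) between 6-OHG and Con and by -0.43 ± 0.10 (SE, adjusted p = 0.0223, limma) between Mod and Con.

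Several marker lists split in the same way as Bche, among them the markers of neurons in general (898.1 to 1027 FPKM in 6-OHG, 921.5 to 973.8 FPKM in Mod, 1040 to 1070 FPKM in Con). Other glial lists did not. Astrocyte markers summed to 420.8 to 538.8 FPKM in 6-OHG, 442.9 to 532.8 FPKM in Mod and 438.6 to 512.2 FPKM in Con. Oligodendrocyte markers summed to 690.6 to 1270 FPKM, 851.4 to 1993 FPKM and 1265 to 1707 FPKM in the same order. Summed levels of 7 oligodendrocyte precursor markers were 34.9 to 61.0 FPKM in 6-OHG and 49.1 to 75.9 FPKM in Mod, against 86.5 to 106.7 FPKM in Con. Those of 10 microglia markers were 74.9 to 103.2 FPKM in 6-OHG and 89.0 to 106.6 FPKM in Mod, against 111.4 to 125.6 FPKM in Con. Liver makes the Bche of serum, and 10 transcripts listed as those of liver averaged 0.77 to 1.46 on the log2(FPKM + 1) scale in 6-OHG and 1.06 to 2.85 in Mod, against 3.08 to 3.31 in Con. Their summed levels were 46.6 to 392.1 FPKM in 6-OHG and 72.2 to 330.2 FPKM in Mod, against 432 to 787.8 FPKM in Con. Whether they came from liver, blood or cells of the brain was not tested. Of these 10, Alb, Apoa1, Apoa2, Fabp1, Apoc3, Ambp and Fgb were listed at 0 in some libraries. The others, Ttr, Serpina1a and Trf, were above 0 in every library. The part of each gene in the summed levels is not given here, so the sums do not stand for RNA of liver or serum. Endothelial markers were called in both directions at an adjusted p under 0.05 (limma). Of 10, 5 were higher and 3 lower in 6-OHG than in Con, against 16.3% and 14.4% of all genes tested. Between Mod and Con, 6 were higher and 3 lower, against 14.0% and 9.81% of all genes tested. The part of these lists in the Bche difference was not tested.

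Ache, the main enzyme of acetylcholine breakdown, had 11.0, 25.6, 11.6 and 15.0 FPKM in the 6-OHG libraries, 22.2, 15.5, 19.2, 16.3 and 23.1 FPKM in Mod, and 12.5, 10.8, 14.7 and 25.4 FPKM in Con. Mod overlapped the other groups only through 6-OHG replicate 2 and Con replicate 4, which held the highest values of all. The means were 15.8 ± 6.79 FPKM in 6-OHG (SD, n = 4), 19.3 ± 3.4 FPKM in Mod (SD, n = 5) and 15.8 ± 6.58 FPKM in Con (SD, n = 4). The differences were -0.33 (95% interval -0.89 to 0.22, adjusted p = 0.416, limma) between 6-OHG and Mod and 0.33 (-0.23 to 0.88, adjusted p = 0.391) between Mod and Con. With both of those libraries left out, Ache was lower in 6-OHG than in Mod by -0.58 ± 0.15 (SE, adjusted p = 0.018, limma) and higher in Mod than in Con by 0.57 ± 0.15 (SE, adjusted p = 0.0136, limma), in each case without overlap. Of all genes tested without the pair, 14.7% were lower without overlap in 6-OHG than in Mod and 18.3% higher in Mod than in Con. Leaving out 6-OHG replicate 2 alone gave -0.58 between 6-OHG and Mod (adjusted p = 0.0984, limma), and leaving out Con replicate 4 alone gave 0.57 between Mod and Con (adjusted p = 0.09, limma). Between 6-OHG and Con the difference was -0.01 with all libraries and -0.01 without the pair (95% interval -0.37 to 0.35).

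Without the pair, 21.0% of all genes tested were called between 6-OHG and Mod, 29.1% between 6-OHG and Con and 29.5% between Mod and Con, and 3, 0 and 2 of the 7 cholinergic genes. The choice of these 2 libraries rests on the likeness of whole libraries seen in earlier results of these data, and the cholinergic genes are among the genes that set them apart. Ache in them stood at 2.05 times (6-OHG replicate 2) and 2.01 times (Con replicate 4) the mean of the other libraries of the group, and Chrna4 at 2.27 and 1.99 times. Chrm2 stood at 1.73 and 1.51 times that mean. Chrm1, in contrast, stood at 0.516 and 0.46 times, Chrm4 at 0.344 and 0.5 times and Chrm3 at 0.749 and 0.528 times. Markers of excitatory neurons of cortex and hippocampus were also lowest there, with 488.8 FPKM in 6-OHG replicate 2 and 372.7 FPKM in Con replicate 4 against 655.8 to 1160 FPKM elsewhere. The part of this difference in tissue markers in the values of the cholinergic genes was not tested.

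**Figure D2:**
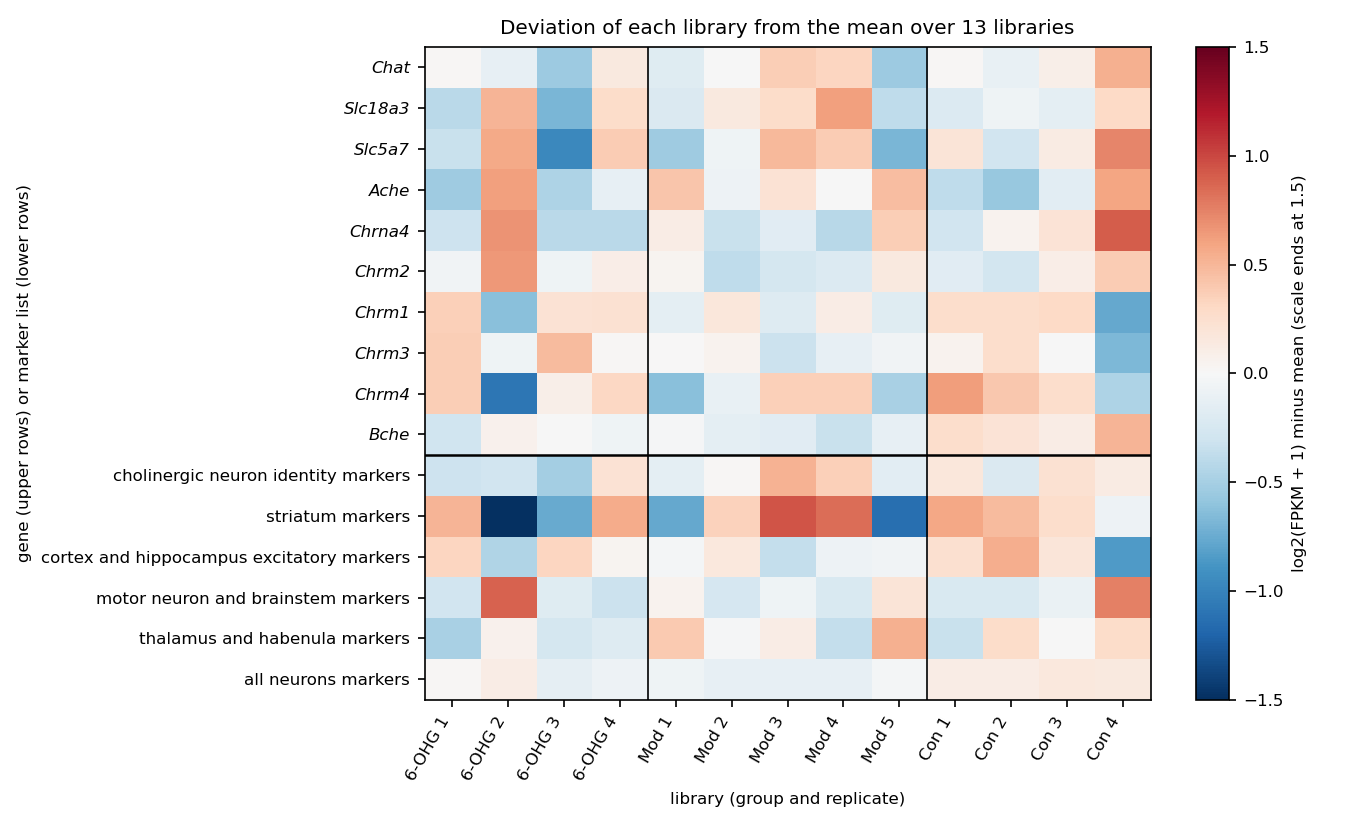
Deviation of each library (columns, grouped as 6-OHG, Mod and Con) from the mean of log2(FPKM + 1) over 13 libraries, for the 10 cholinergic genes (upper rows) and for the mean of 6 marker lists (lower rows). Red is above and blue below the mean, and the colour scale ends at 1.5 on either side. 6-OHG replicate 2 and Con replicate 4 are red for Ache, Chrna4, Chrm2 and the motor neuron and brainstem list, and blue for Chrm1, Chrm4 and the cortex and hippocampus list.

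The genes that define a cholinergic neuron varied together from library to library. Slc5a7 had 1.07, 2.87, 0.326 and 2.38 FPKM in the 6-OHG libraries, 0.804, 1.49, 2.66, 2.39 and 0.62 FPKM in Mod, and 1.97, 1.14, 1.85 and 3.32 FPKM in Con. Slc18a3 had 0.379, 1.6, 0.131 and 1.21 FPKM in 6-OHG, 0.57, 1.02, 1.22, 1.8 and 0.404 FPKM in Mod, and 0.594, 0.741, 0.648 and 1.25 FPKM in Con. Chat had 0.747, 0.589, 0.178 and 0.915 FPKM in 6-OHG, 0.524, 0.712, 1.24, 1.15 and 0.18 FPKM in Mod, and 0.749, 0.604, 0.831 and 1.49 FPKM in Con. All 3 were lowest in 6-OHG replicate 3, within Mod all 3 were lowest in replicate 5, and in each gene the groups overlapped.

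The highest library stood at 8.37 times the lowest for Chat, 13.7 times for Slc18a3 and 10.2 times for Slc5a7, against 2.31 to 3.81 times for Ache and the 5 receptor genes. Over the 13 libraries, Pearson's r of the log2 values was 0.86 between Chat and Slc5a7, 0.87 between Slc18a3 and Slc5a7 and 0.71 between Chat and Slc18a3 (0.94, 0.84 and 0.82 over the 11 libraries without the pair). These correlations mix differences within and between groups and are descriptions. In 6-OHG replicate 2, Slc18a3 and Slc5a7 stood at 2.79 and 2.28 times the mean of the other libraries of the group while Chat stood at 0.96 times. In Con replicate 4 all 3 were raised, at 1.89 times for Slc18a3, 2.0 times for Slc5a7 and 2.05 times for Chat.

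Slc5a7 averaged 1.66 ± 1.17 FPKM in 6-OHG (SD, n = 4), 1.59 ± 0.916 FPKM in Mod (SD, n = 5) and 2.07 ± 0.908 FPKM in Con (SD, n = 4). Its differences had wide intervals, -0.01 (95% interval -0.73 to 0.71) between 6-OHG and Mod, -0.28 (-1.04 to 0.48) between 6-OHG and Con and -0.27 (-0.99 to 0.45) between Mod and Con, with adjusted p of 0.992, 0.575 and 0.598 (limma). Chat averaged 0.607 ± 0.316 FPKM in 6-OHG, 0.762 ± 0.441 FPKM in Mod and 0.918 ± 0.393 FPKM in Con (SD, n = 4, 5 and 4), with exact permutation p of 0.619, 0.314 and 0.571 for 6-OHG against Mod, 6-OHG against Con and Mod against Con. Slc18a3 averaged 0.83 ± 0.689 FPKM in 6-OHG, 1.00 ± 0.554 FPKM in Mod and 0.809 ± 0.302 FPKM in Con (SD, n = 4, 5 and 4), with exact permutation p of 0.571, 0.886 and 0.651 in the same order of comparisons. A change of these genes smaller than their spread between libraries was not detectable here. Of the 11 other cholinergic markers, 3 were tested and 0 were called in each comparison (0 also at an unadjusted p under 0.05), and their summed level ran from 4.21 FPKM in 6-OHG replicate 3 to 25.0 FPKM in Mod replicate 3. Striatal markers were lowest in 6-OHG replicate 2 (69.2 FPKM), Mod replicate 5 (116.4 FPKM), Mod replicate 1 (165.8 FPKM) and 6-OHG replicate 3 (184.3 FPKM), against 272.8 to 618.2 FPKM elsewhere.

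Among the muscarinic receptors coupled to Gq, which raise neuronal excitability, Chrm1 had 22.2, 10.7, 20 and 20.2 FPKM in the 6-OHG libraries, 15.3, 19.4, 14.8, 18.5 and 15.0 FPKM in Mod, and 20.7, 20.8, 21.1 and 9.6 FPKM in Con. Apart from 6-OHG replicate 2 and Con replicate 4, the lowest of all, every 6-OHG and Con library lay above every Mod library. The means were 18.3 ± 5.13 FPKM in 6-OHG (SD, n = 4), 16.6 ± 2.19 FPKM in Mod (SD, n = 5) and 18.1 ± 5.64 FPKM in Con (SD, n = 4). The differences with all libraries were 0.09 (95% interval -0.41 to 0.60, adjusted p = 0.832, limma) between 6-OHG and Mod and -0.06 (-0.57 to 0.45, adjusted p = 0.884) between Mod and Con. Without the pair they were 0.32 ± 0.09 (SE, adjusted p = 0.0283, limma) and -0.32 ± 0.09 (SE, adjusted p = 0.0189, limma), in each case without overlap (11.3% of all genes were higher so in 6-OHG than in Mod and 14.9% lower in Mod than in Con). Leaving out 6-OHG replicate 2 alone gave 0.32 between 6-OHG and Mod (adjusted p = 0.318, limma), and leaving out Con replicate 4 alone gave -0.32 between Mod and Con (adjusted p = 0.224, limma).

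Chrm3, the other receptor of this class among the genes described here, had 8.92, 6.35, 9.7 and 6.79 FPKM in the 6-OHG libraries, 6.71, 6.92, 5.15, 6.07 and 6.39 FPKM in Mod, and 6.96, 8.18, 6.62 and 3.83 FPKM in Con. The 2 highest values were 6-OHG libraries and the lowest was Con replicate 4, and the groups overlapped. It averaged 7.94 ± 1.63 FPKM in 6-OHG (SD, n = 4), 6.25 ± 0.694 FPKM in Mod (SD, n = 5) and 6.40 ± 1.84 FPKM in Con (SD, n = 4). The difference between 6-OHG and Mod was 0.29 with all libraries (95% interval -0.07 to 0.65, adjusted p = 0.268, limma) and 0.38 ± 0.11 without the pair (SE, adjusted p = 0.036, limma). Without the pair 6-OHG and Mod still overlapped. Leaving out any 1 library alone gave no call (lowest adjusted p = 0.111, limma).

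**Figure D3:**
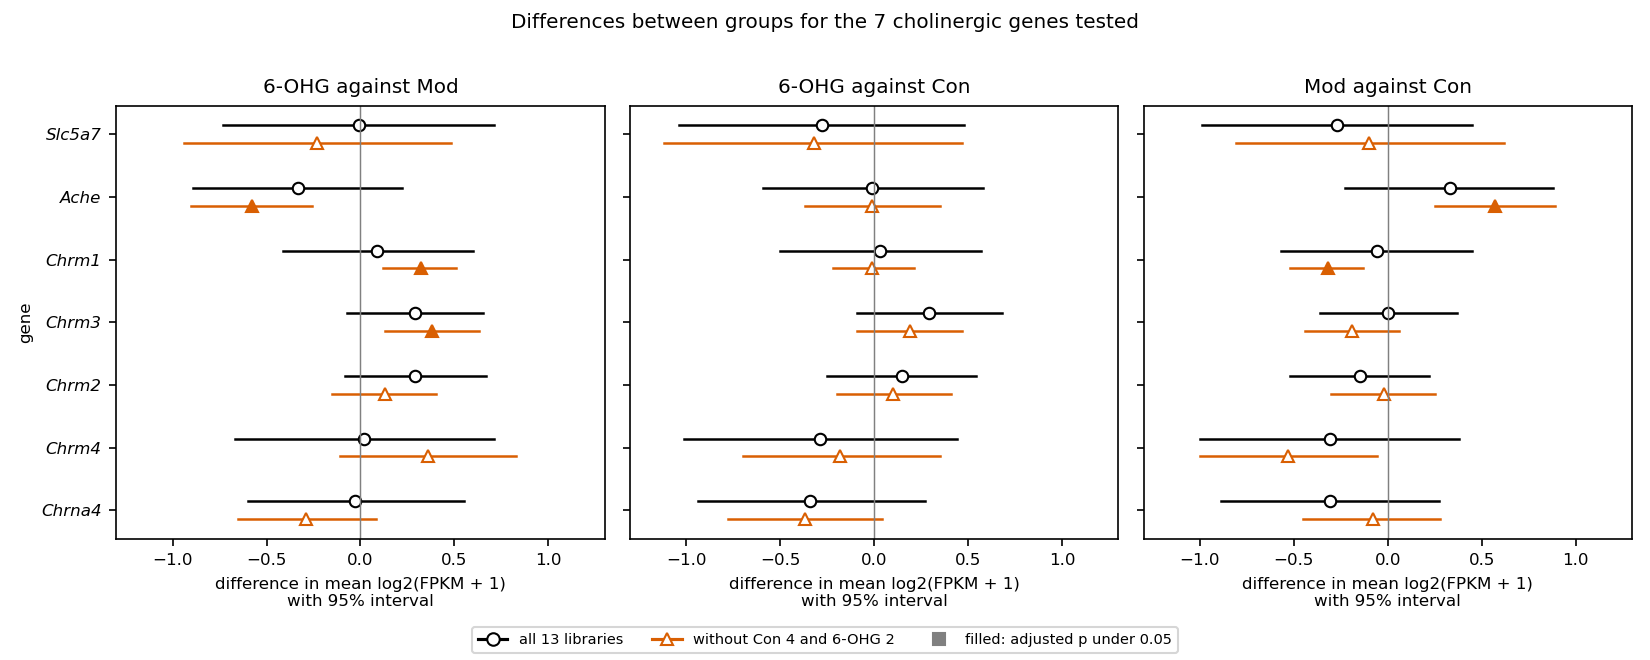
Differences in mean log2(FPKM + 1) with 95% intervals (horizontal axis) for the 7 cholinergic genes in the fit, between 6-OHG and Mod, 6-OHG and Con, and Mod and Con. Circles are fits of all 13 libraries and triangles fits without 6-OHG replicate 2 and Con replicate 4, filled where the adjusted p is under 0.05. Filled marks appear only without the pair, for Ache, Chrm1 and Chrm3 between 6-OHG and Mod and for Ache and Chrm1 between Mod and Con.

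The receptors coupled to Gi, which lower transmitter release and excitability, did not pass the test in any comparison. Chrm2, the autoreceptor of many cholinergic terminals, had 3.82, 6.9, 3.8 and 4.36 FPKM in the 6-OHG libraries, 4.16, 2.83, 3.16, 3.34 and 4.53 FPKM in Mod, and 3.48, 3.13, 4.39 and 5.55 FPKM in Con. The highest values were those of 6-OHG replicate 2 and Con replicate 4, and the groups overlapped, with means of 4.72 ± 1.48 FPKM in 6-OHG (SD, n = 4), 3.61 ± 0.713 FPKM in Mod (SD, n = 5) and 4.14 ± 1.08 FPKM in Con (SD, n = 4). Its difference between 6-OHG and Mod was 0.29 (95% interval -0.08 to 0.67, adjusted p = 0.273, limma). Chrm4, a receptor of striatal projection neurons, had 13.5, 4.27, 10.9 and 12.9 FPKM in 6-OHG, 6.28, 9.31, 13.3, 13.4 and 7.01 FPKM in Mod, and 16.3, 13.9, 12.4 and 7.09 FPKM in Con. Its 4 lowest values fell in 6-OHG replicate 2, Mod replicate 1, Mod replicate 5 and Con replicate 4, which were 4 of the 5 libraries lowest in striatal markers. Chrm4 averaged 10.4 ± 4.21 FPKM in 6-OHG (SD, n = 4), 9.85 ± 3.36 FPKM in Mod (SD, n = 5) and 12.4 ± 3.88 FPKM in Con (SD, n = 4). The intervals ran from -0.67 to 0.71 between 6-OHG and Mod, from -1.01 to 0.44 between 6-OHG and Con and from -1.0 to 0.38 between Mod and Con. Without the pair, Chrm4 differed by -0.53 between Mod and Con (95% interval -1.0 to -0.06, adjusted p = 0.0825, limma).

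Chrna4, which with Chrnb2 forms the main high-affinity nicotinic receptor of the brain, had 5.71, 12.3, 5.26 and 5.27 FPKM in the 6-OHG libraries, 8.03, 5.59, 6.41, 5.22 and 9.69 FPKM in Mod, and 5.84, 7.63, 8.61 and 14.6 FPKM in Con. The highest values were those of 6-OHG replicate 2 and Con replicate 4, and the groups overlapped. The means were 7.12 ± 3.43 FPKM in 6-OHG (SD, n = 4), 6.99 ± 1.86 FPKM in Mod (SD, n = 5) and 9.18 ± 3.82 FPKM in Con (SD, n = 4). No difference passed the test, with -0.34 between 6-OHG and Con (95% interval -0.94 to 0.27, adjusted p = 0.389, limma) as the largest in size of the 3. Without the pair this was -0.37 (adjusted p = 0.159), with every 6-OHG library below every Con library, as for 22.3% of all genes.

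Across the 13 libraries, Ache ran opposite to Chrm1 (Pearson's r = -0.90, Spearman's rho = -0.91), and r was -0.90 over the 11 libraries without the pair. Chrm2 and Chrna4 ran together (r = 0.77), but r was 0.45 without the pair. The genes most like each member in this measure, with no inference on shared roles, were Sparc for Ache (r = 0.98), Sv2c for Slc5a7 (r = 0.94), Slc8a2 for Chrm1 (r = 0.96), Klhdc10 for Chrm2 (r = 0.96), Tshz3 for Chrm3 (r = 0.96), Cacna2d3 for Chrm4 (r = 0.96) and Irx2 for Chrna4 (r = 0.98). Irx2 is a homeobox gene of patterned regions of the brain, and Nefh, a neurofilament of large axons, was next for Chrna4 (r = 0.97). Of the values for the best match, the lowest without the pair was 0.87, for Chrm1 with Slc8a2. The libraries share tissue makeup and scaling, so these values carry no p.

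Of the other receptor genes in the fit, Chrna7 was the 1 that was called. Of 16 listed, 14 were matched in the table and 3 (Chrna6, Chrna7 and Chrnb2) were tested. Chrna6 passed the filter only through Con replicate 4 (5.97 FPKM), without which it fell under the mean of 1 FPKM. The 1 of 3 stands beside 15.3% of all genes called between 6-OHG and Mod and 23.8% between Mod and Con. Chrna7, the subunit of the alpha-bungarotoxin-binding nicotinic receptor, had 1.71, 2.35, 1.97 and 2.08 FPKM in the 6-OHG libraries, 1.26, 1.32, 1.2, 1.14 and 0.67 FPKM in Mod, and 1.65, 1.53, 1.86 and 1.85 FPKM in Con. All Mod libraries lay below all libraries of the other groups. Of all genes tested without 6-OHG replicate 2 and Con replicate 4, 11.3% were higher without overlap in 6-OHG than in Mod. The share lower without overlap in Mod than in Con was 14.9%. Chrna7 was higher in 6-OHG than in Mod by 0.52 ± 0.10 (SE, adjusted p = 0.00541, limma) and lower in Mod than in Con by -0.37 ± 0.10 (SE, adjusted p = 0.0186, limma). 6-OHG and Con differed by 0.15 ± 0.11 (SE, adjusted p = 0.297, limma). Both calls held without 6-OHG replicate 2 and Con replicate 4 (adjusted p of 0.0131 and 0.0359), and that between Mod and Con was lost without Con replicate 3 (adjusted p = 0.0576). The call between 6-OHG and Mod was lost with the length and GC trend and a replicate block removed together (adjusted p = 0.0687). The comparisons share the Mod libraries, so a low Mod value enters both. Markers of the hypothalamus ran the other way, with summed levels of 2.55 to 40.8 FPKM in 6-OHG, 67.7 to 125.6 FPKM in Mod and 4.64 to 76.2 FPKM in Con, and their part in these calls was not tested. Chrnb2 averaged 9.43 ± 1.08 FPKM in 6-OHG (SD, n = 4), 8.00 ± 0.697 FPKM in Mod (SD, n = 5) and 8.96 ± 0.808 FPKM in Con (SD, n = 4), with adjusted p of 0.101 between 6-OHG and Mod (limma), and its annotated span overlaps that of Adar, so reads may be shared.

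Chrna6, a subunit of catecholaminergic neurons, had 2.49 FPKM in 6-OHG replicate 2 and 5.97 FPKM in Con replicate 4, against 0.0198 to 0.16 FPKM in the other 6-OHG libraries, 0.148 to 2.35 FPKM in Mod and 0.114 to 0.546 FPKM in the other Con libraries. Chrnb1, the beta subunit of the muscle receptor, lies under the filter and was chosen after its values were seen. It had 1.19, 0.827, 1.46 and 1.22 FPKM in 6-OHG, 1.08, 1.26, 1.12, 0.911 and 1.09 FPKM in Mod, and 0.562, 0.532, 0.525 and 0.764 FPKM in Con, with no overlap between Con and either other group. Chrna10 of the same list split likewise at lower levels, with 0.292 to 0.696 FPKM in 6-OHG, 0.279 to 0.717 FPKM in Mod and 0 to 0.182 FPKM in Con. Of genes averaging at least 1 FPKM, 18.3% were higher without overlap in Mod than in Con, without 6-OHG replicate 2 and Con replicate 4. Such a share is not given here for genes under the filter or for 6-OHG against Con. In the fit of all genes without the filter Chrnb1 was higher in 6-OHG than in Con by 0.44 ± 0.09 (SE, adjusted p = 0.0106, limma) and in Mod than in Con by 0.39 ± 0.09 (SE, adjusted p = 0.0192, limma). That fit called 11.4% of all genes between 6-OHG and Con and 8.08% between Mod and Con. As Chrnb1 was picked from these same values, neither its separation nor these adjusted p are independent evidence.

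Choline supply and acetyl-CoA genes were mixed. Of 11 tested (14 listed), 2 rose and 1 fell between Mod and Con, where 14.0% of all genes were called higher and 9.81% lower. Between 6-OHG and Con 2 rose and 0 fell (16.3% and 14.4% of all genes), and 0 of 11 were called between 6-OHG and Mod, with 3 at an unadjusted p under 0.05 (limma; 15.3% of all genes called). Without 6-OHG replicate 2 and Con replicate 4, 2 rose and 1 (Acly) fell between 6-OHG and Con and 3 rose (Chkb in addition) and 1 fell between Mod and Con, where 29.1% and 29.5% of all genes were called, and 0 were called between 6-OHG and Mod (21.0%). Gpcpd1, a glycerophosphocholine phosphodiesterase, averaged 22.2 ± 3.74 FPKM in 6-OHG (SD, n = 4), 21.2 ± 1.34 FPKM in Mod (SD, n = 5) and 15.1 ± 0.381 FPKM in Con (SD, n = 4). Every library of both exposed groups lay above every Con library for Gpcpd1 (without the pair, 18.3% of all genes tested were higher so in Mod than in Con). The share of genes higher so in 6-OHG than in Con is not given here. It was higher in 6-OHG than in Con by 0.52 ± 0.10 (SE, adjusted p = 0.00199, limma) and in Mod than in Con by 0.46 ± 0.09 (SE, adjusted p = 0.00367, limma), and both calls held under all 24 other settings tried. The choline transporter Slc44a2 was higher in Mod (5.6 ± 0.189 FPKM) than in Con (4.59 ± 0.366 FPKM) at an adjusted p of 0.023 (limma), which was 0.105 with columns rescaled to equal sums, and the call was also lost without Con replicate 1 or Con replicate 3. Pcyt1b, an enzyme of phosphatidylcholine synthesis, was higher in 6-OHG (12.0 ± 0.482 FPKM) than in Con (10.2 ± 0.854 FPKM) at an adjusted p of 0.0167 (limma), which was 0.0616 with only the 2 groups in the fit and 0.0699 with the trend and block removed. Acly, the cytosolic source of acetyl-CoA, was lower in Mod (26.1 ± 2.72 FPKM) than in Con (35.2 ± 5.76 FPKM) at an adjusted p of 0.0335 (limma), a call lost without the filter (0.093), under quantile normalization (0.0515) and without Con replicate 1, 3 or 4 or Mod replicate 1, 2, 4 or 5.

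Proteins that bind or chaperone the receptors and esterases were called in both comparisons with Con. Of 9 tested (10 listed), 3 rose and 3 fell between 6-OHG and Con, 0 rose and 2 fell between Mod and Con, and 0 were called between 6-OHG and Mod, where 5 had an unadjusted p under 0.05 (limma). Of all genes, 16.3% rose and 14.4% fell between 6-OHG and Con, 14.0% rose and 9.81% fell between Mod and Con, and 15.3% were called between 6-OHG and Mod. Without 6-OHG replicate 2 and Con replicate 4 the counts were 0 and 3, 0 and 2, and 0 and 2, where 29.1%, 29.5% and 21.0% of all genes were called. Lynx1, a membrane-anchored brake on nicotinic receptors, had 88.4, 71.1, 78.3 and 72.3 FPKM in the 6-OHG libraries, 72.1, 71.8, 67.6, 65.6 and 69.3 FPKM in Mod, and 84.9, 97.6, 82.5 and 87.9 FPKM in Con. All Mod libraries lay below all Con libraries, as did those of 14.9% of all genes tested without the pair. Lynx1 was lower in Mod than in Con by -0.34 ± 0.07 (SE, adjusted p = 0.0045, limma). Tmem35a, a chaperone of Chrna7 receptors also called NACHO, averaged 18.5 ± 4.32 FPKM in 6-OHG (SD, n = 4), 22.9 ± 1.99 FPKM in Mod (SD, n = 5) and 28.2 ± 3.05 FPKM in Con (SD, n = 4). It was lower in 6-OHG than in Con by -0.60 ± 0.14 (SE, adjusted p = 0.00563, limma). Ly6e, of the same protein family as Lynx1, was lower in 6-OHG than in Con by -0.51 ± 0.15 (SE, adjusted p = 0.0227, limma) and in Mod than in Con by -0.54 ± 0.14 (SE, adjusted p = 0.0161, limma), and both calls were lost without the filter (0.065 and 0.0514). The call between 6-OHG and Con was also lost with only the 2 groups in the fit (0.0628) and without Con replicate 1, 2 or 3 or 6-OHG replicate 2 or 4. Lypd6, also of that family, was higher in 6-OHG (6.33 ± 0.283 FPKM) than in Con (5.17 ± 0.588 FPKM) at an adjusted p of 0.0156 (limma), which was 0.0782 without the pair.

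**Figure D4:**
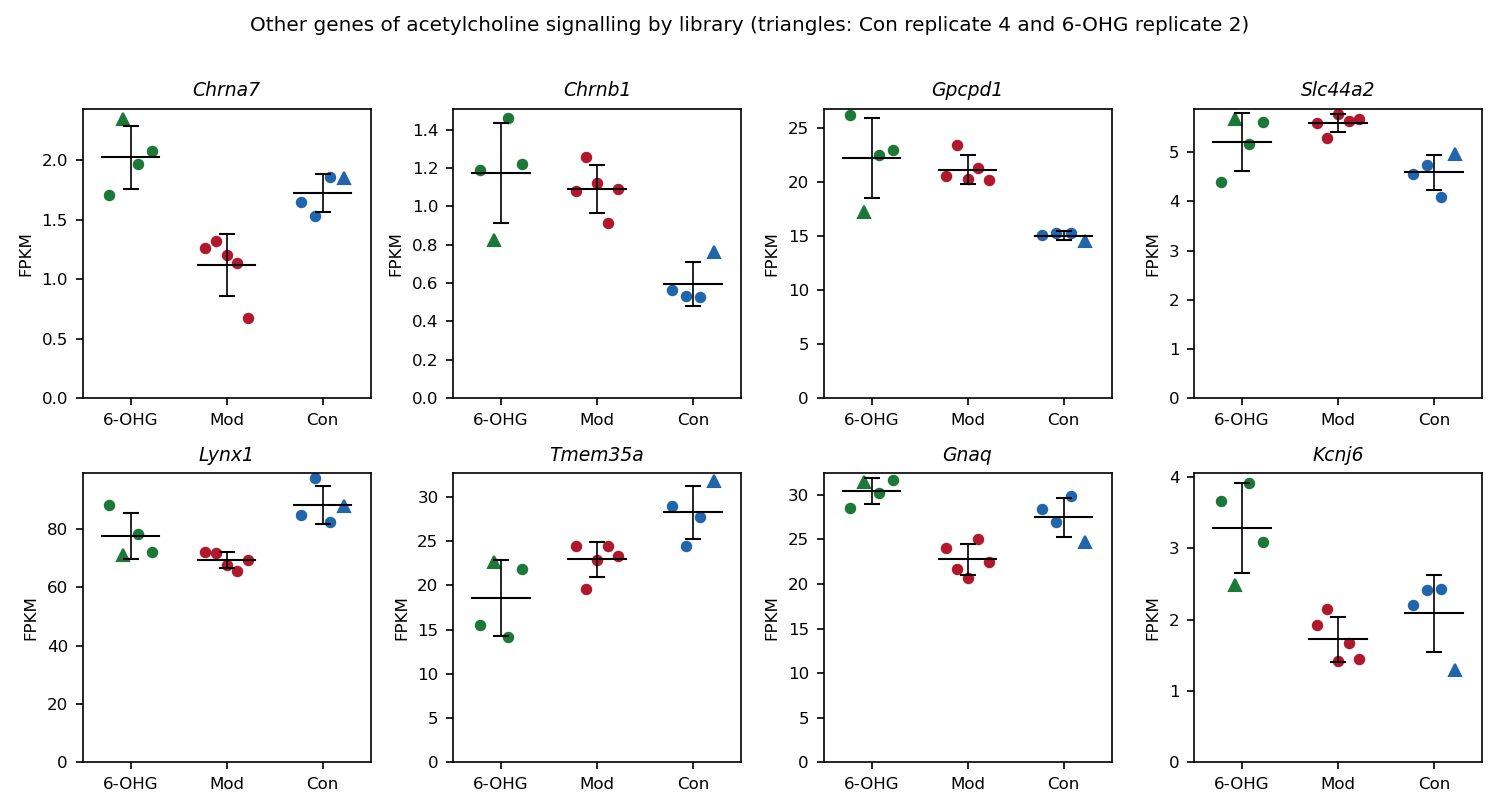
Levels (FPKM, vertical axis from 0) of 8 other genes of acetylcholine signalling in every library of the 6-OHG (n = 4), Mod (n = 5) and Con (n = 4) groups. Points are libraries, triangles are 6-OHG replicate 2 and Con replicate 4, horizontal lines are means and bars are 1 SD. Chrna7 is lowest in Mod (0.67 to 1.32 FPKM), Kcnj6 is highest in 6-OHG (2.48 to 3.91 FPKM), and Gpcpd1 and Chrnb1 are lowest in Con.

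All 16 listed G proteins and effectors of muscarinic receptors were tested. Between 6-OHG and Mod 3 rose and 1 fell (6.98% and 8.35% of all genes), between 6-OHG and Con 1 rose and 2 fell (16.3% and 14.4%), and between Mod and Con 0 rose and 2 fell (14.0% and 9.81%). Without 6-OHG replicate 2 and Con replicate 4 these counts were 8 and 1, 2 and 2, and 0 and 5, where 21.0%, 29.1% and 29.5% of all genes were called. The median difference of the list was 0.18 between 6-OHG and Mod (-0.02 over all genes tested), 0.03 between 6-OHG and Con (0.00 over all genes) and -0.17 between Mod and Con (0.01 over all genes). Gnaq, the alpha subunit through which Chrm1 and Chrm3 act, had 28.5, 31.4, 30.2 and 31.6 FPKM in the 6-OHG libraries, 24.0, 21.7, 20.7, 25.0 and 22.4 FPKM in Mod, and 28.4, 26.9, 29.8 and 24.7 FPKM in Con. Every 6-OHG library lay above every Mod library, and Mod and Con overlapped only in 1 library of each. Of all genes tested without the pair, 11.3% were higher without overlap in 6-OHG than in Mod. Gnaq was higher in 6-OHG than in Mod by 0.41 ± 0.07 (SE, adjusted p = 0.00281, limma) and lower in Mod than in Con by -0.26 ± 0.07 (SE, adjusted p = 0.0158, limma). The second call was lost without Con replicate 3 (0.0569), and both were lost with the trend and block removed (0.0907 and 0.0659).

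Kcnj6, a potassium channel opened by Gi-coupled receptors, had 3.66, 2.48, 3.91 and 3.09 FPKM in the 6-OHG libraries, 1.93, 2.15, 1.42, 1.67 and 1.45 FPKM in Mod, and 2.21, 2.41, 2.43 and 1.3 FPKM in Con. Every 6-OHG library lay above every library of the other groups. With 6-OHG replicate 2 and Con replicate 4 left out, 11.3% of all genes tested were higher without overlap in 6-OHG than in Mod. That share is not given here for 6-OHG against Con, where 16.3% of all genes tested were called higher with all libraries. Kcnj6 was higher in 6-OHG than in Mod by 0.65 ± 0.14 (SE, adjusted p = 0.00842, limma) and than in Con by 0.48 ± 0.14 (SE, adjusted p = 0.0245, limma), the first call being lost with the trend and block removed (0.126). The second was lost so (0.0858), with the trend alone removed (0.0535), without the filter (0.0653), with only the 2 groups in the fit (0.0555) and without Con replicate 4, 6-OHG replicate 1 or 6-OHG replicate 3. Gnai2, an inhibitory alpha subunit found in many cell types, was lower in 6-OHG (30.8 ± 2.13 FPKM) than in Mod (38.2 ± 2.71 FPKM) at an adjusted p of 0.00881 and than in Con (36.7 ± 1.99 FPKM) at an adjusted p of 0.0157 (limma). Both calls were lost with columns rescaled to equal sums (0.105 and 0.0684) and with the trend and block removed (0.177 and 0.0968), and the second under quantile normalization (0.143). Gnao1, the main such subunit of neurons, averaged 43.9 ± 3.37 FPKM in 6-OHG (SD, n = 4) and 44.9 ± 1.93 FPKM in Mod (SD, n = 5), against 56.5 ± 5.29 FPKM in Con (SD, n = 4), with differences from Con of -0.35 ± 0.08 (SE, adjusted p = 0.0038, limma) and -0.32 ± 0.07 (SE, adjusted p = 0.00641, limma). Summed markers of neurons in general were likewise lower in every 6-OHG and Mod library than in every Con library, and their part in the difference of Gnao1 was not tested.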

How the data were processed

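RNA of mouse brain was measured in 13 libraries. The authors deposited 1 table of FPKM values, with 1 column per library, and all 13 columns were used. The submitters' processing notes name HISAT2 2.2.1, featureCounts 1.5.0-p3, StringTie 2.1.6, cutadapt 1.9, edgeR, DESeq2 and FastQC, without roles or order, and the builds mm10 and GRCm38. The strand setting and annotation release are not given in the sources used here, so reads of overlapping genes (Chat and Slc18a3, or Ache and the minus-strand Gm42456) may be shared. Whole reads could not be recovered, since 4.58% to 5.92% of low values lay within 0.01 of whole multiples of the commonest step.

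Gene IDs were matched to GENCODE M21 (37499 of 37636), which also gave coordinates, and promoters came from RefSeq. The members, gene lists, named-gene rule and settings were chosen with earlier results of these data known. All 10 members are named, as are up to 4 genes of each pathway list with the smallest p, and the text gives the nearest of the 3 genes most like each member. Genes that averaged 1 FPKM or more were fitted as log2(FPKM + 1) with 1 mean per group in limma 3.58.1 (R 4.3.3, moderated variances with a trend), adjusted over all genes tested and called at an adjusted p under 0.05. Members under the filter had an exact two-sided permutation test. Alternatives were another pseudocount, filter, scaling, weighting, set of groups or covariates, each library left out in turn, and 2 left out together. Figures were drawn with matplotlib 3.10.9 in Python 3.11.15.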

Additional observations from a re-analysis of the deposited data

Results flagged for a closer look

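Of 30 groups of libraries (10 genes in 3 groups) tested for a single distant value, 2 held one, where chance gives about 1 in 20. Chrm1 in Con replicate 4 was 9.6 FPKM, against 20.7 to 21.1 FPKM in the other Con libraries. Chrna4 in 6-OHG replicate 2 was 12.3 FPKM, against 5.26 to 5.71 FPKM in the other 6-OHG libraries.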

How the results depend on the processing

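Of 660 values of the 10 cholinergic genes under other settings, 607 kept their direction and side of the threshold, 47 changed sign and 6 newly passed it. With both 6-OHG replicate 2 and Con replicate 4 left out, 3 genes were called between 6-OHG and Mod and 2 between Mod and Con, and without the filter 1 (Bche) between Mod and Con, while leaving out any 1 library gave 0 to 0 calls. Ache between 6-OHG and Con was 0.02 with equal sums, 0.03 with quantile normalization, 0.06 with the length and GC trend removed, 0.06 with that and the replicate block, and 0.02 with sample weights. Chrm1 between 6-OHG and Con was -0.01 without the pair and -0.02 with weights. Between 6-OHG and Mod, Slc5a7 was 0.05 with equal sums, Chrm4 was -0.07 with the replicate block, and Chrna4 was 0.06 with equal sums, 0.09 with the block, 0.02 with the trend removed and 0.14 with both.

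With 1 library left out at a time, 6-OHG minus Mod ran from -0.25 to 0.03 for Chat, -0.36 to 0.04 for Slc18a3, -0.23 to 0.29 for Slc5a7, -0.01 to 0.32 for Chrm1, -0.13 to 0.36 for Chrm4 and -0.29 to 0.09 for Chrna4. 6-OHG minus Con ran from -0.25 to 0.23 for Ache, -0.25 to 0.15 for Slc18a3, -0.50 to 0.01 for Slc5a7, -0.23 to 0.26 for Chrm1, -0.02 to 0.27 for Chrm2 and -0.51 to 0.05 for Chrm4. Mod minus Con ran from -0.01 to 0.23 for Slc18a3 and -0.32 to 0.03 for Chrm1.

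Over all genes, 2131 were called between 6-OHG and Mod, against 846 with the replicate block, 995 with the length and GC trend removed, 74 with both and 1349 to 2344 without 1 library (1349 without 6-OHG replicate 4). Between 6-OHG and Con 4268 were called, against 2663 at a filter of 5 FPKM. Between Mod and Con 3304 were called, against 2061 at 5 FPKM, 2039 with the block and 2138 with block and trend. Same-numbered libraries did not deviate together (r of -0.483 to 0.346 over 12 pairs), so the numbers are not taken as pairs. Under the block the calls of Chrna7, Gnaq, Acly, Slc44a2 and Ly6e between Mod and Con, of Gnai2 between 6-OHG and Mod and of Gnai2 and Lypd6 between 6-OHG and Con were lost. Genes counted above without a name also lost their calls under it, Lypd1 (0.0705) and Ric3 (0.0906) between 6-OHG and Con and Kcnj3 (0.136) between 6-OHG and Mod (adjusted p, limma). With the trend also removed, the call of Gnao1 between Mod and Con was lost (0.0581). The causes were not tested. No read totals are given, so precision at low FPKM rests on the spread between libraries alone.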
